A study of Mus musculus with 15 samples.

Results

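The 8 genes described here, Crisp1, Lcn8, Lcn9, Lcn5, Lcn2, Adam7, Rnase10 and Cst8, are best known from the epididymis, except for Lcn2, which many epithelia make, and they were followed through libraries made from epididymal fat. They were picked by name out of 23589 loci that carry a gene name, with their levels in the fat libraries already known, so those levels are given as a description, and no call made on them is support for a difference. Male C57BL/6 mice were fed ad libitum (AL), were held at 40% dietary restriction (DR) for 1 month from 4 months of age, or were restricted in the same way and then returned to ad libitum feeding for 2 months (DR-AL). Mice were sampled at 5 months of age on AL and DR but at 7 months on DR-AL, so refeeding and age cannot be told apart. Fat, liver, colon, hypothalamus and hippocampus each gave 1 library per diet from RNA pooled over 5 mice, 15 libraries in all. With 1 library per group there are no replicates. Intervals in brackets after a value are exact Clopper-Pearson 95% intervals, which cover counting error alone and not the spread between mice, pools or dissections.

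The epididymis is a coiled duct that lies against the epididymal fat pad and joins the testis to the vas deferens. Its epithelium is divided into segments, from the initial segment next to the testis through the caput (head) and corpus (body) to the cauda (tail), and each segment secretes its own set of proteins onto the maturing sperm. Lcn8, Lcn9 and Lcn5 are lipocalins, small carriers of lipophilic molecules. Cst8 is a cystatin-related protein, Rnase10 a member of the ribonuclease A family, Adam7 a membrane protein handed over to sperm, and Crisp1 a cysteine-rich secretory protein that coats sperm. From this general knowledge Lcn8, Lcn9, Rnase10 and Cst8 were grouped under the initial segment, Adam7 and Lcn5 under the caput beyond it, and Crisp1 towards the tail. Lcn2, a siderophore-binding lipocalin made by neutrophils and inflamed epithelia, was kept apart. The question was whether the members fall into groups with different ratios between the 3 fat libraries.

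The stretches just upstream of 5 members are shown because Lcn8, Lcn9 and Rnase10 had nearly the same distribution over the libraries, while Lcn5, the next gene to Lcn8 on chromosome 2, and Crisp1 did not. RefSeq promoter entries on GRCm38.p6 matched 7 of the 8 members, and each line below holds the 250 bases before the entry's start site, 5′ to 3′. Capitals mark matches on either strand to TGTTCT, which reads as AGAACA on the other strand and is a hexamer of the androgen response element, or to TATAAA, which reads as TTTATA there and is the TATA box.
Lcn8, chr2:25652868-25653117, plus strand: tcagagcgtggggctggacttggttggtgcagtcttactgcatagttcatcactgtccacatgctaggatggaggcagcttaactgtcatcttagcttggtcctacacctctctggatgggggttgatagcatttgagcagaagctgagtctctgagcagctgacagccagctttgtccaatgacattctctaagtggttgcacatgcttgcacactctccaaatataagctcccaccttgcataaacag
Lcn9, chr2:25822903-25823152, plus strand: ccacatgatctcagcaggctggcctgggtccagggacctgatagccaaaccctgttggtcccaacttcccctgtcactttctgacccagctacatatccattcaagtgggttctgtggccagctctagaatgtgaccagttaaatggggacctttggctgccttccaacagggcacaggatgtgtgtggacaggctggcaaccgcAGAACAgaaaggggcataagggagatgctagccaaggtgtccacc
Rnase10, chr14:51007501-51007750, plus strand: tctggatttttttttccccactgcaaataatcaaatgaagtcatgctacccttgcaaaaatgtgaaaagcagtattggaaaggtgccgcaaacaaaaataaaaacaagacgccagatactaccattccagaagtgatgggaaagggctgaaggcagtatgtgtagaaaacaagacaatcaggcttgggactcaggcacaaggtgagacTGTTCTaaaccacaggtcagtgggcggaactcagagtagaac
Lcn5, chr2:25657702-25657951, plus strand: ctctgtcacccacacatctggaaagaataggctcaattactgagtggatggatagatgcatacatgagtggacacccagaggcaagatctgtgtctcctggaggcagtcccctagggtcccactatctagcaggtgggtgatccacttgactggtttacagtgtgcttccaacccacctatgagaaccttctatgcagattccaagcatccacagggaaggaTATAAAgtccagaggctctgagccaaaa
Crisp1, chr17:40319208-40319457, minus strand: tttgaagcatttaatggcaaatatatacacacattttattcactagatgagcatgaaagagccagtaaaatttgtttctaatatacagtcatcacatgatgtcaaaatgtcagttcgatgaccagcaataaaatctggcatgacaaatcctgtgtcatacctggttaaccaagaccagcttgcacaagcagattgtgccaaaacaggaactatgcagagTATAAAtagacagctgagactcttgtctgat
The androgen hexamer was found once in Lcn9 and once in Rnase10 and in 16.1% of all 32851 promoter entries. The TATA box was found once in Lcn5 and once in Crisp1 and in 12.4% of all entries. The PEA3 motif AGGAAG, which reads as CTTCCT on the other strand and is a site for ETS factors, was in none of these 5 windows and in 29.5% of all entries. No match overlapped another. Lcn8 had no match to any of these motifs. Among the matched members not shown, Cst8 had none either, and Lcn2 had 3 PEA3 matches and no other.

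The counts on named loci were 26217345 in AL fat, 22829358 in DR fat and 27357403 in DR-AL fat, within the range of 21767088 to 40500130 over the 15 libraries. The fat label held for adipocyte markers: 9 of 9 listed genes were counted in all 3 libraries, led by the fatty acid carrier Fabp4 (460955, 281101 and 289177 counts in AL, DR and DR-AL). Their summed level was 53430, 43308 and 32306 CPM (counts scaled to a common library total) in that order. The libraries also stood apart in other ways. Hepatocyte genes were high in AL fat, with 32008, 262 and 81 counts for the apolipoprotein Apoa1, although Alb, the main hepatocyte gene, was listed at 0 in all 15 libraries. The 7 listed genes of testicular germ cells summed to 4.77, 583 and 2820 CPM. The part of these differences in the results below was not tested, and with 1 library per diet no result could be repeated without the library in question. In bulk RNA, fewer cells of a type and less RNA per cell cannot be told apart. A 0 in the table need not mean that no read was sequenced: Ly6c1, a surface antigen of endothelial cells and monocytes, was listed at 0 in all 5 DR libraries and had 756056 counts in AL fat.

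Apart from Lcn2, the members were nearly confined to fat. Lcn5, which binds retinoic acid, had 0 counts in 12 of the 12 libraries of other tissues. Lcn9 and Cst8 had 0 counts in 11 of 12 and 1 count in the remaining library. Lcn8 and Rnase10 each had 0 counts in 7 of 12, with highest counts of 10 and 5, both in the liver DR-AL library. For Lcn8 this was 0.408 CPM, above AL fat (0.0763 CPM) and DR-AL fat (0.183 CPM), so DR fat alone stood above all other tissues. Adam7 reached 11 counts in the colon DR-AL library, and Crisp1 reached 37 counts (1.39 CPM) in the colon AL library. A single count was worth 0.0247 to 0.0459 CPM over the 15 libraries. The locus that holds Lcn2 was counted in all 12, between 10.3 and 57.5 CPM, highest in the hippocampus AL library. This locus also carries the name 1110008P14Rik, so its counts cannot be assigned to Lcn2 and are given as those of the Lcn2 locus.

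**Figure D1:**
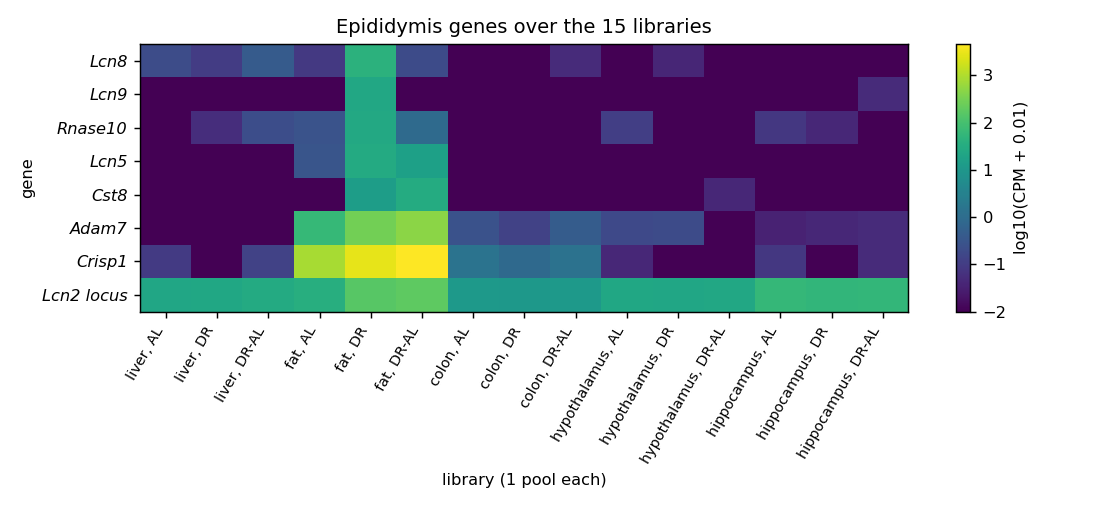
Level of the 8 genes in each of the 15 libraries, as colour on the scale log10(CPM + 0.01), with libraries along the horizontal axis and genes down the vertical axis. Lcn8, Lcn9 and Rnase10 are bright in DR fat alone, Adam7 and Crisp1 in all 3 fat libraries, and the Lcn2 locus in every library.

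In DR against AL fat, all 8 members had higher counts in DR. The authors' rule, a Z test on square roots of scaled counts that also asks for a difference of at least 25%, called all 8 higher in DR, as it did 35.2% of the 20382 loci tested, with 10.4% called lower. That test takes a Poisson variance and no replicate spread, and the members were chosen on these values, so nothing is read from the count. The sizes were spread widely, from a log2 fold change of 1.73 for Crisp1 to 10.33 for Lcn9. The median was 6.50, or 6.60 with low counts set at the limit of 3 counts, against 0.23 over all tested loci.

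Lcn8 (chromosome 2, 25653120 to 25656217, plus strand) had 2, 1003 and 5 counts in AL, DR and DR-AL fat. The DR library stood alone, at 576 times the AL level [159 to 4762]. DR-AL was 0.00416 times DR [0.00135 to 0.00974] and 2.40 times AL [0.392 to 25.2], the last an interval that includes no difference. Lcn9, another lipocalin gene (chromosome 2, 25823153 to 25825537, plus strand), had 0, 576 and 0 counts. Against the 3 counts that a 0 allows in a library, it was at least 220-fold higher in DR than in AL and at least 230-fold higher in DR than in DR-AL. The exact two-sided interval is wider, with a lower limit of 179 for DR over AL and an upper limit of 0.00536 for DR-AL over DR. Rnase10 (chromosome 14, 51007751 to 51010758, plus strand) had 7, 603 and 24 counts. Its DR level was 98.9 times that of AL [47.7 to 247], and DR-AL kept 0.0332 of DR [0.0211 to 0.0499]. DR-AL was 3.29 times AL [1.37 to 9.03] by counts, and the deposited FPKM values (fragments scaled by transcript length and library) were 0.109 and 0.117. For these 3 genes DR alone was high, and AL and DR-AL were both at 0.877 CPM or less.

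Cst8 (chromosome 2, 148798785 to 148805595, plus strand), placed with the same segment, did not have this distribution. It had 0, 328 and 830 counts, so that AL was at 0 but DR-AL was the highest library. DR was at least 126-fold and DR-AL at least 265-fold above the 3 counts allowed in AL, with exact lower limits of 102 and 215. DR-AL was 2.11 times DR [1.86 to 2.41] by counts and 1.10 times by FPKM. The 7 listed germ cell genes also had their highest summed level in DR-AL. The part of germ cell RNA in the Cst8 counts was not tested.

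Lcn5 (chromosome 2, 25657952 to 25661977, plus strand) had 8, 660 and 455 counts. It was 94.7 times [47.8 to 220] higher in DR and 54.5 times [27.4 to 127] higher in DR-AL than in AL, and DR-AL stood at 0.575 of DR [0.509 to 0.649]. It thus lay between the genes that were counted almost only in DR and those that remained high in DR-AL. Adam7 (chromosome 14, 68497336 to 68533741, minus strand) had 1612, 6574 and 13169 counts, already well above the other tissues in AL. Crisp1 (chromosome 17, 40293758 to 40319207, minus strand) had 22172, 63971 and 125400 counts, or 846, 2802 and 4584 CPM, and was by far the most abundant member. On the count scale DR-AL was 1.67 times DR for Adam7 [1.62 to 1.72] and 1.64 times for Crisp1 [1.62 to 1.65], but on the FPKM scale both were lower in DR-AL, at 0.861 and 0.832 of DR. The Lcn2 locus (chromosome 2, 32384633 to 32388252, minus strand) had 939, 3487 and 5024 counts. It was 1.20 times higher in DR-AL than in DR [1.15 to 1.26] by counts, short of the fold threshold, and 0.643 of DR by FPKM.

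**Figure D2:**
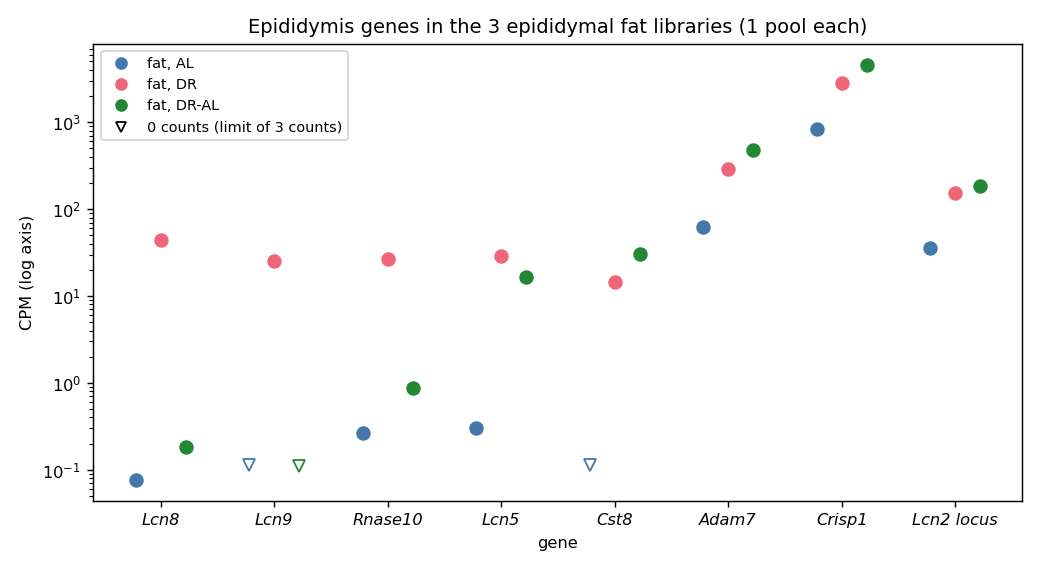
CPM of each gene on a log axis in the AL, DR and DR-AL fat libraries, 1 pool each, with open triangles at the limit of 3 counts for libraries with 0 counts. DR is far above both other libraries for Lcn8, Lcn9 and Rnase10, whereas Crisp1, Adam7 and the Lcn2 locus rise over the 3 libraries in CPM, an order of DR and DR-AL that turns on the FPKM scale.

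Levels between genes were compared per length. In DR fat Crisp1 was at 1083 FPKM, the Lcn2 locus at 88.2, Adam7 at 34.7, Lcn8 at 26.0, Lcn5 at 18.0, Lcn9 at 15.7, Cst8 at 9.52 and Rnase10 at 6.61. In AL fat Crisp1 (491 FPKM), the Lcn2 locus (41.7) and Adam7 (11.5) were the 3 members above 1, and the other 5 were at 0.245 or less. In DR-AL fat Crisp1 was at 901 FPKM, the Lcn2 locus at 56.7, Adam7 at 29.8, Cst8 at 10.5 and Lcn5 at 5.51, and Lcn8, Lcn9 and Rnase10 were at 0.117 or less. The FPKM of a locus was lower for the same CPM in DR and DR-AL than in AL, by a median factor of 0.604 and 0.326, so the 2 scales give different ratios between libraries. From DR to DR-AL this factor changed by 0.540, and ratios of DR-AL to DR below are by counts unless FPKM is named.

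A measure that needs no scaling between libraries is the count of a gene for every 1000 counts of Crisp1 in the same library. In the order AL, DR and DR-AL, Lcn8 stood at 0.0902 [0.0109 to 0.326], 15.7 [14.7 to 16.7] and 0.0399 [0.0129 to 0.0931]. Lcn9 stood at 9.0 [8.28 to 9.77] in DR, with exact upper limits of 0.166 in AL and 0.0294 in DR-AL. Rnase10 stood at 0.316 [0.127 to 0.651], 9.43 [8.69 to 10.2] and 0.191 [0.123 to 0.285]. For these 3 genes the intervals of AL and DR-AL overlapped or both began at 0, and that of DR lay far above. Lcn5 stood at 0.361 [0.156 to 0.711], 10.3 [9.54 to 11.1] and 3.63 [3.30 to 3.98], so the 3 libraries were apart. Cst8, limited to 0.166 in AL, reached 5.13 [4.59 to 5.72] with DR and 6.62 [6.17 to 7.09] with DR-AL. Adam7 stood at 72.7 [69.1 to 76.5], 103 [100 to 105] and 105 [103 to 107], and the Lcn2 locus at 42.4 [39.6 to 45.2], 54.5 [52.7 to 56.4] and 40.1 [38.9 to 41.2]. These 2 loci moved least against Crisp1. In these 3 pools the ratios of the members to each other differed by more than counting error. The members, Crisp1 among them, were chosen on these counts, so this is a description and not a test.

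In DR-AL against DR the members lay on both sides of 0. By the authors' rule 3 were higher in DR-AL (Cst8, Adam7 and Crisp1), where 38.3% of tested loci were called higher, 4 were lower (Lcn8, Lcn9, Rnase10 and Lcn5), where 13.3% were called lower, and the Lcn2 locus was not called. On the FPKM scale none of the 8 was past the fold threshold upwards. The median log2 fold change of the members was -0.27, against 0.28 over all tested loci, and the values ran from -10.33 to 1.08. With edgeR's exact test at a preset coefficient of variation of 0.4 in place of Poisson spread, 3 members were called lower (Lcn8, Lcn9 and Rnase10) among 64 loci (0.314% of those tested) and none higher, where 16 loci were (0.0785%). That spread was set by hand and not measured, and nothing is read from either set of calls, since the members were chosen on these values. In DR-AL against AL, 6 members were called higher and Lcn8 and Lcn9 were not called, with 46% of loci called higher and 11.9% lower. Their median log2 fold change was 2.40 against 0.39 over all tested loci. This comparison and that of DR with AL share the AL library.

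**Figure D3:**
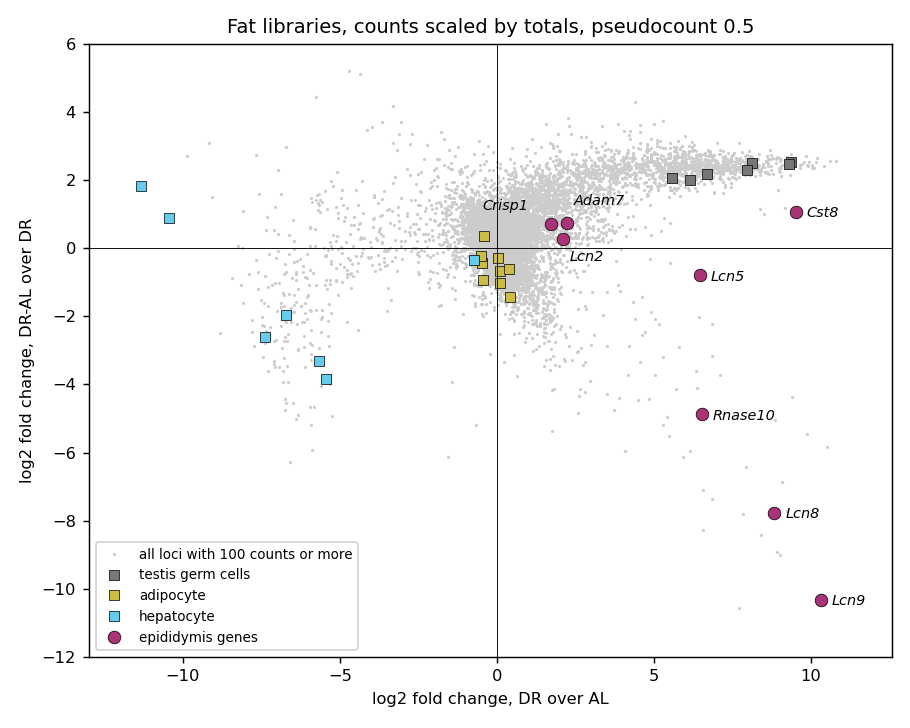
Log2 fold change of DR over AL (horizontal) against DR-AL over DR (vertical) in fat for loci with 100 counts or more, which share the DR library between the axes, with the 8 members, germ cell, adipocyte and hepatocyte genes marked and 1 of 15540 loci outside the axes. Lcn5, Rnase10, Lcn8 and Lcn9 run down the right side in that order, Cst8 lies beside the germ cell genes on the horizontal axis but lower on the vertical one, and Crisp1 and Adam7 lie above 0 on this count scale, though below it by FPKM.

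Other genes of the proximal epididymis, from a list of 18 of which 17 were matched on 16 loci, spread over the same range. In DR against AL 16 of 16 loci were called higher, as were 35.2% of all tested loci. In DR-AL against DR 9 were called lower, 5 higher and 2 not at all, against 13.3% lower and 38.3% higher over all tested loci. The list was chosen with earlier results of these data known, so nothing is read from these counts. Gpx5, a secreted glutathione peroxidase of the caput, had 9, 3828 and 139 counts, a DR-AL level of 0.0303 of DR [0.0254 to 0.0359], close to that of Rnase10. Adam28, a membrane metalloprotease, had 3, 352 and 2 counts. Cst11, a cystatin, had 0, 270 and 1, and Lcn10, another lipocalin, had 0, 154 and 0. Ly6g5c had 0, 60 and 2 counts. These 5 were, like Lcn8 and Lcn9, counted almost only in DR fat. The locus shared by the beta-defensin-like genes Spag11a and Spag11b had 21, 1043 and 168 counts and a ratio of 0.134 [0.114 to 0.158], and Lcn6, with 1, 22 and 2 counts, one of 0.0759 [0.00865 to 0.309]. At the other end Cst12 (0, 164 and 397 counts) and Rnase9 (264, 1823 and 4669 counts) had ratios of 2.02 [1.68 to 2.44] and 2.14 [2.02 to 2.26] by counts, near that of Cst8, and of 1.07 and 1.11 by FPKM, short of the fold threshold. Lcn12, a lipocalin with 32, 95 and 190 counts, stayed at 1.44, 1.49 and 1.51 for every 1000 counts of Crisp1, with overlapping intervals in all 3 libraries.

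Of 4 listed genes of the distal duct, the sperm surface glycoprotein gene Cd52 (4335, 15300 and 36382 counts) and the carboxylesterase Ces5a (1136, 3556 and 11464 counts) were called higher in DR-AL than in DR, at ratios of 1.98 [1.95 to 2.02] and 2.69 [2.59 to 2.79] by counts. By FPKM the ratios were 1.05, short of the fold threshold, and 1.44. The part of cells outside the duct in the counts of Cd52 and Ces5a was not tested. Of all tested loci, 38.3% were called higher in DR-AL than in DR. Bsph1 had 1, 9 and 4 counts. Akr1b7, an aldose reductase-like enzyme that adipose tissue also makes, was lower in DR-AL, with 33955, 41966 and 14121 counts. The epithelial transcription factor Pax2, counted 147, 459 and 1305 times, had a DR-AL to DR ratio of 2.37 [2.13 to 2.64]. Foxi1, of the narrow and clear cells, had 22, 74 and 364 counts and a ratio of 4.10 [3.19 to 5.34]. The basal cell keratin Krt5 had 56, 136 and 297 counts and a ratio of 1.82 [1.48 to 2.25]. By FPKM these ratios were 1.34 for Pax2, 2.24 for Foxi1 and 1.02 for Krt5. None of these 3 had the distribution of Lcn8, and all were counted in AL fat. The 7 germ cell genes, from Smcp of the sperm tail to the protamine Prm1, had ratios of 4.00 to 5.82 by counts and 2.20 to 3.33 by FPKM, on either scale above that of every member.

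**Figure D4:**
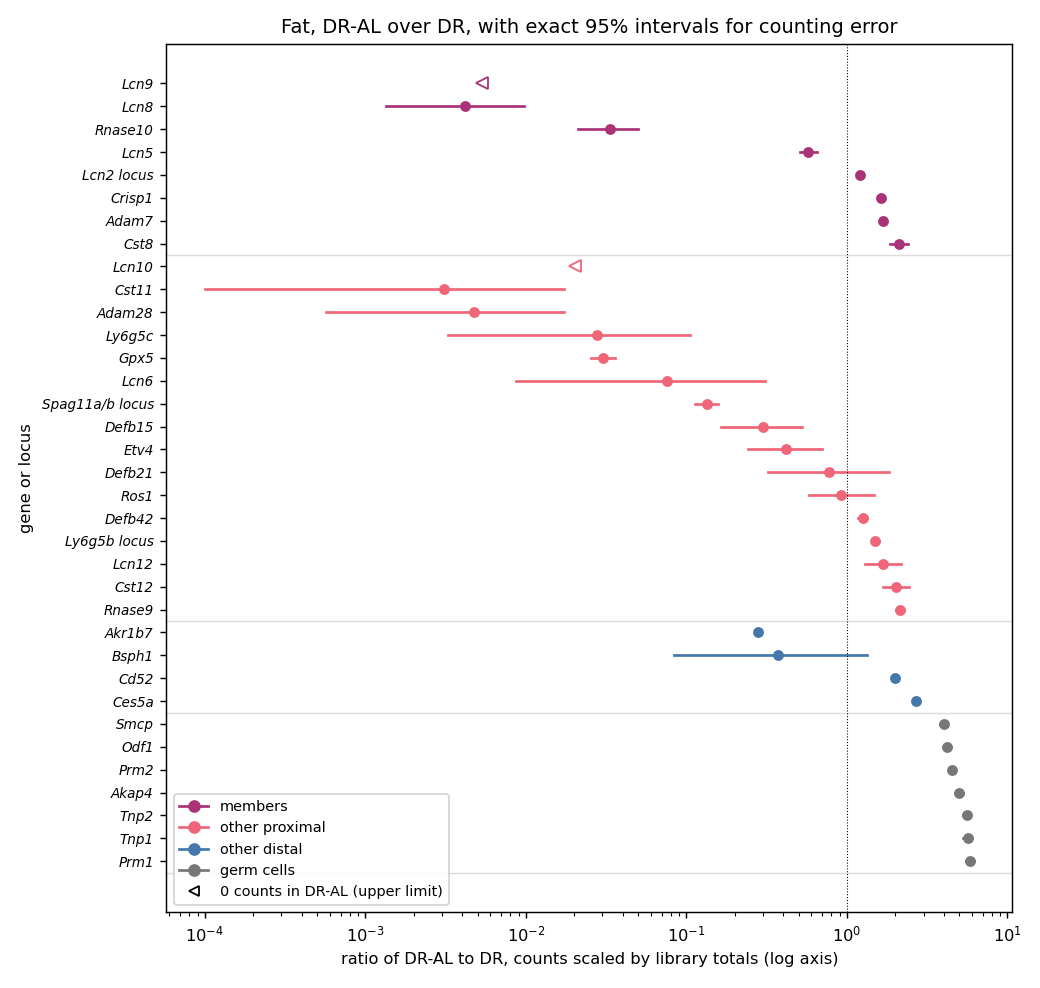
Ratio of DR-AL to DR fat by counts scaled by library totals, on a log axis, for the members, the other proximal and distal genes and the germ cell genes, with exact 95% intervals for counting error and arrows at the upper limit where DR-AL had 0 counts. Members and proximal genes spread from below 0.01 to about the level of Cst8 (2.11), and the germ cell genes lie between 4.00 and 5.82; by FPKM the points of Crisp1, Adam7, the Lcn2 locus, Lcn12, Defb42 and the Ly6g5b locus fall below 1.

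Neighbours of one family did not share one distribution over the fat libraries. In the lipocalin cluster on chromosome 2, the start of Lcn5 lies 4.83 kb from that of Lcn8, Lcn6 23.7 kb, Lcn10 29.6 kb and Lcn9 170 kb from it on one side, and Lcn12 162 kb on the other. Lcn8, Lcn10 and Lcn9 were counted almost only in DR, Lcn6 had 1, 22 and 2 counts, Lcn5 had most of its CPM in DR with a large share in DR-AL, and Lcn12 followed Crisp1. In the cystatin cluster, Cst11 lies 30.2 kb from Cst8 and was counted almost only in DR. Cst12, 9.42 kb from Cst8, had nearly its ratio. Cst13 (0, 34 and 307 counts) and Cst9 (0, 104 and 609 counts) were at 7.53 and 4.89 times the DR level in DR-AL, in or above the range of the germ cell genes. Cst3, the widely expressed cystatin C gene, was at 0.956 of DR.

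In the ribonuclease cluster on chromosome 14, Rnase10 was the 1 gene with most of its CPM in DR. Rnase9, Rnase11 (32, 251 and 643 counts) and Rnase12 (240, 1016 and 3309 counts), 30.7 to 48.9 kb from it, were at 2.14, 2.14 and 2.72 times the DR level in DR-AL. Adam28, 109 kb from Adam7, had the distribution of Lcn8 and not that of Adam7. Crisp2, a sperm protein gene 470 kb from Crisp1, had 6, 1526 and 9255 counts and a ratio of 5.06, which lay in the range of the germ cell genes, while Crisp4 (50, 213 and 641 counts) was at 2.51. The 21 beta-defensin loci with 100 counts or more over the fat libraries, a limit that favours loci high in any of them, had DR-AL to DR ratios of 0.0172 to 5.47. Their median was 2.30 by counts and 1.11 by FPKM, and Defb26, Defb29, Defb42 and Defb43 were above 1 by counts and below 1 by FPKM. The 3 lower in DR-AL on both scales were Defb25 (2, 97 and 2 counts), Defb48 (14, 329 and 71 counts) and Defb20 (6, 488 and 144 counts), with ratios of 0.0172, 0.180 and 0.246. Genes of 1 family can share reads where their sequences are alike, and how the counting treated such reads is not given in the sources used here.

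**Figure D5:**
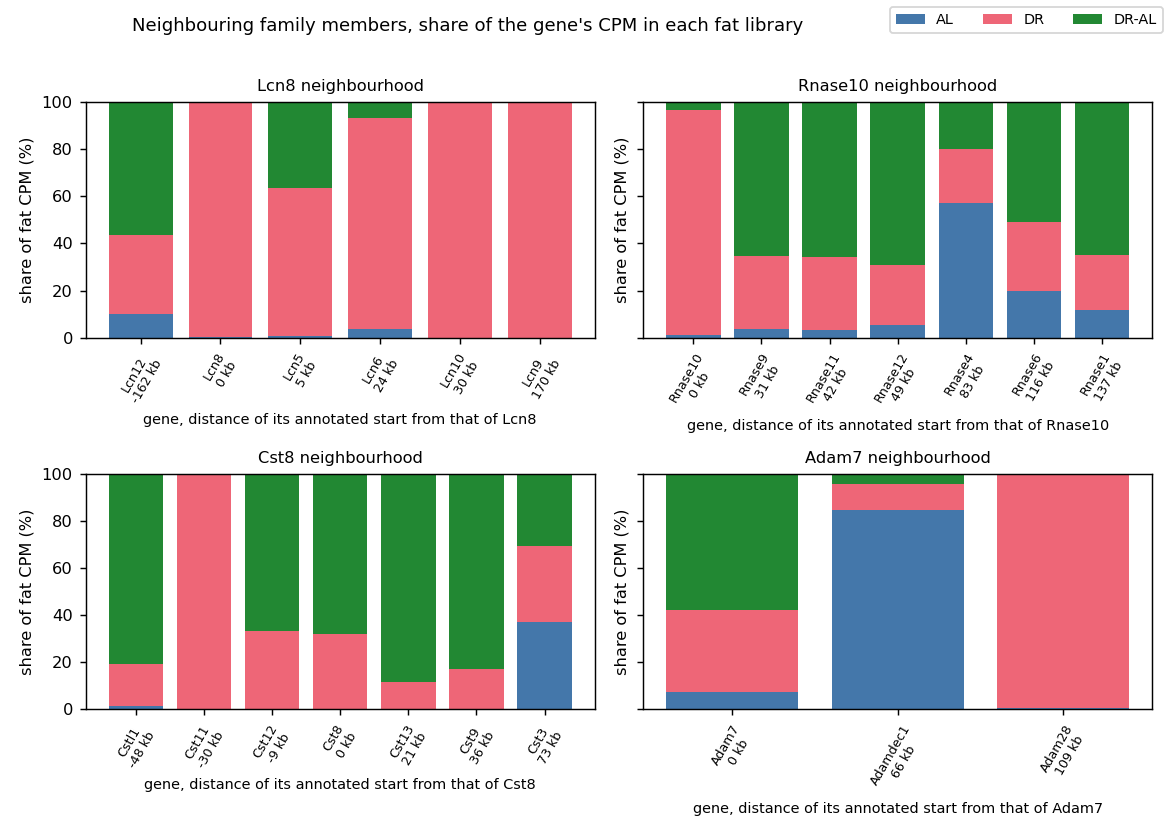
Share (%) of each gene's fat CPM found in the AL, DR and DR-AL libraries for family members within 500 kb of Lcn8, Rnase10, Cst8 and Adam7, in genome order, with the distance between annotated starts in kb. Bars almost wholly from DR (Lcn8, Lcn10, Lcn9, Rnase10, Cst11, Adam28) stand beside bars with most of the CPM in DR-AL (Lcn12, Rnase9, Cst12, Adam7).

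The genes most like each member were found by the Euclidean distance between the shares of CPM in the 15 libraries, among 14314 loci with 200 fat counts or more. They were Teddm1, Gm4846 and Cst11 for Lcn8 (distances 0.00861 to 0.0179), and 9230110F15Rik, Cst11 and Gm4846 for Lcn9 (0.00304 to 0.0230). For Rnase10 they were Gpx5, 9230104L09Rik and Adam28 (0.0262 to 0.0407), and for Cst8 they were Gm6792, Cst12 and the protease inhibitor gene Spint4 (0.0140 to 0.0193). Spinkl, Wisp2 and Defb43 came closest to Adam7 (0.0166 to 0.0272), and Lcn12, Spinkl and Defb43 to Crisp1 (0.0158 to 0.0289). Lcn5 had no close neighbour, with Gm1110 nearest at 0.122, followed by the transcription factor Gata3 and the smooth muscle actin Acta2. The Lcn2 locus had none either, with Mfap4, Ccno and AU021092 at 0.0877 to 0.0953. No locus was among the nearest 3 of both Lcn8 and Crisp1. That follows from their own shares, since DR fat held 97.7% of the CPM of Lcn8 and 34.0% of that of Crisp1. The limit of 200 fat counts can be passed through the 1 library where a gene is high.

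Beside the Lcn2 locus, whose product also marks neutrophils and inflammation, the neutrophil genes S100a8 (49, 20 and 20 counts) and S100a9 (8, 6 and 4 counts) were low in the 3 fat libraries, and Ngp was at 0, 0 and 1. Of 8 neutrophil genes, none was called higher in DR than in AL, against 35.2% of all tested loci. The summed level of the 8 neutrophil genes was 43.3, 43.5 and 153 CPM. Lactoferrin (Ltf), which many secretory epithelia also make, held most of it with 972, 873 and 4072 counts. Of 8 acute phase genes, 7 were called lower in DR-AL than in AL, against 11.9% of all tested loci. The summed level of the 8 acute phase genes was 3260, 1274 and 946 CPM. Like the hepatocyte gene Apoa1, Hpx (12093, 106 and 34 counts) and Itih4 (8771, 277 and 74 counts) were high in AL fat. The part of hepatocyte RNA in the acute phase levels was not tested. Haptoglobin (Hp) had 58303, 24872 and 24412 counts and Saa1 239, 3 and 11, while Saa3, the 1 called higher, had 111, 104 and 180. The part of these genes in the level of the Lcn2 locus was not tested.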

How the data were processed

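RNA-Seq was performed on 5 tissues of AL, DR and DR-AL mice, with 1 stranded, ribosome-depleted library per tissue and diet from RNA pooled over 5 mice. The authors trimmed and aligned the reads and removed duplicates. They deposited, for 33603 loci in 15 libraries, whole-number counts and FPKM values (30 columns, all used, with 0 left out). The counts are not normalized. How the FPKM values were scaled between libraries is not given in the sources used here. Loci without a gene name held 0.258 to 1.39% of the counts and were left out. The submitters' processing notes name mm9 and DESeq2 and the methods name mm10. Of 21384 symbols, 13.6% overlapped their GENCODE M21 position on GRCm38, so positions were taken from GENCODE M21 and not from the table.

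Counts were divided by the library total on named loci to give CPM. The authors' Z test (adjusted p under 0.05, fold change of 1.25) was run on 20382 loci with at least 1 fat count. Log2 fold changes used a pseudocount of 0.5. Ratios carry exact 95% intervals, a 0 allows 3 counts, and both cover counting error only. Python 3.11.15, pandas 2.3.3, numpy 2.4.6, scipy 1.17.1, R 4.3.3, edgeR 4.0.16 and DESeq2 1.42.0 were used.

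The members, gene lists and segment groups were chosen with earlier results of these data known. Named genes were the members, the leading genes of each list, any gene of the proximal and distal lists, family loci with 100 fat counts or more, and the 3 nearest loci to each member. Ly6c1, Alb and list genes beyond the leading 3 were named after their values were seen. Teddm1b and Adgrg2 were not matched. The alternatives were other scalings, pseudocounts, a filter, a stricter fold, edgeR's exact test, FPKM, and, chosen after seeing the data, scaling by adipocyte genes and leaving out the Lcn2 locus.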

Additional observations from a re-analysis of the deposited data

How the results depend on the processing

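No paired analysis was possible because each group has 1 library. With no replicates, a difference between diets cannot be told apart from one between pools or dissections. Of 168 values for single members under another scaling, pseudocount or unit, 157 kept direction and call, 6 reversed, 4 lost the call and 1 gained it. For the FPKM values among them, a call means only that the fold threshold was passed. No Z test or adjusted p entered there, so these are not calls by the authors' rule. All 6 reversals came with FPKM, in DR-AL against DR: Adam7 at -0.22 and -0.21, Crisp1 at -0.26 and -0.26, and the Lcn2 locus at -0.64 and -0.63 log2, with pseudocounts of 0.1 and 1. Lcn8, Lcn9, Rnase10 and Lcn5 kept their direction and call in DR-AL against DR under every scaling, pseudocount and FPKM setting run for them.

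The median log2 fold change of the members in DR-AL against AL was 2.06 with DESeq size factors, 1.93 with TMM factors, 2.32 without the 10 most abundant loci, and 0.66 and 0.65 with FPKM. In DR against AL it was 5.36 and 3.09 with FPKM. In DR-AL against DR it was -0.42 with DESeq factors, -0.52 with TMM, -1.16 and -1.09 with FPKM, -0.80 without the Lcn2 locus, and reversed to 0.16 when scaled by adipocyte genes. The values by segment are medians of the members' log2 fold changes in DR-AL against DR. For the caput pair the median was -0.18 (DESeq), -0.28 (TMM), -0.95 and -0.88 (FPKM) and, reversed, 0.39 (adipocyte genes). With totals that median lies between Adam7 at 0.74 and Lcn5 at -0.80, while the ratio of the pair's summed counts was 1.57 [1.53 to 1.62]. For Crisp1 the log2 fold change was 0.56 (DESeq), 0.46 (TMM), 0.68 (without the 10 most abundant loci), -0.26 with either pseudocount (FPKM, reversed) and 1.13 (adipocyte genes). It was 0.12, 0.014, -0.64 and -0.63 (FPKM, reversed) and 0.69 (adipocyte genes) for the Lcn2 locus. For the initial segment the median was -6.32 with totals and -3.42 with FPKM and a pseudocount of 1. The ratio of the summed counts of this group was 0.286 [0.264 to 0.309]. Within the group, Cst8 was at 1.10 times DR by FPKM.

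Members called higher fell to 5 in DR against AL with edgeR's exact test, which did not call Adam7, Crisp1 and the Lcn2 locus there, Rnase10 in DR-AL against AL, nor Cst8, Adam7, Lcn5 and Crisp1 in DR-AL against DR. At a fold change of 4, Crisp1 in DR against AL, Rnase10 in DR-AL against AL and the same 4 in DR-AL against DR lost their call. In DR-AL against DR the number called higher fell to 0 with the exact test, with both FPKM settings and with a fold change of 4. Loci called over the whole table moved as follows, where the FPKM numbers count loci past the fold threshold alone, without a Z test. In DR against AL, 3961 and 2099 were higher with FPKM, 1376 with the exact test and 2607 at a fold of 4, while 3383 (DESeq), 3708 (TMM), 11002 and 8969 (FPKM), 405 (exact) and 608 (fold of 4) were lower. In DR-AL against AL, 6187 (TMM), 3851 and 2433 (FPKM), 2973 (exact) and 4152 (fold of 4) were higher and 5029 (DESeq), 6447 (TMM), 13444 and 11719 (FPKM), 413 (exact) and 541 (fold of 4) lower. In DR-AL against DR, 3452 and 1949 (FPKM), 16 (exact) and 2271 (fold of 4) were higher and 4817 (TMM), 11521 and 9142 (FPKM), 64 (exact) and 356 (fold of 4) lower. The median of all loci with a mean of 10 counts or more was 0.24, 0.34 and 0.24 log2 with totals in the 3 comparisons, and 0.02, -0.13 and -0.01 with TMM.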

Other observations

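Other organs of the male tract were followed by their own lists. Of 8 seminal vesicle genes, 5 (Svs1, Svs2, Svs3a, Svs4 and Svs6) had 6 counts or fewer in every fat library. Ceacam10 had 478, 846 and 3675 counts, Pate4 5, 25 and 108, and Svs5 3, 9 and 73, so that all 3 had their highest count in DR-AL. The 4 prostate genes summed to 5, 10 and 13 counts. Among genes of the somatic testis, Hsd3b6, a steroid dehydrogenase of Leydig cells, had 0, 58 and 602 counts, and Hsd17b3, which makes testosterone there, had 2, 36 and 213. Cyp17a1, an androgen-synthesis enzyme, had 235, 475 and 1825 counts, and Insl3 could not be read apart because its locus also carries Jak3. The ratios of DR-AL to DR for Hsd3b6, Hsd17b3 and Cyp17a1 were 8.66 [6.61 to 11.5], 4.94 [3.46 to 7.24] and 3.21 [2.90 to 3.55], each above that of every member. Dhh had 58, 35 and 232 counts and a ratio of 5.53 [3.87 to 8.14]. Inhbb, an inhibin subunit, went the other way with 1010, 1421 and 622 counts (0.365 [0.332 to 0.402]). Gsta2 and Amh were not called in DR-AL against DR. Gsta2, with 104, 62 and 70 counts, was called lower in DR and in DR-AL than in AL.

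Among genes of the general epididymal epithelium, Pax8 had 359, 1249 and 2760 counts, the chloride channel Cftr 22, 103 and 245, and the aquaporin Aqp9, which adipocytes and hepatocytes also make, 2707, 859 and 1869. Pax8 and Cftr were called higher in DR than in AL and Aqp9 lower. Several disintegrin genes of sperm had the ratios of germ cell genes: Adam2 (8, 286 and 1745 counts), Adam3 (11, 836 and 5469), Adam5 (9, 841 and 5636) and Adam32 (5, 473 and 2983) had, by counts, 5.09, 5.46, 5.59 and 5.26 times the DR level in DR-AL. Adam7 and Adam28 did not.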
